A study of Homo sapiens with 4 samples.

Results

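The zinc finger genes of chromosome 19 were taken as all entries of the gene table that lie on chromosome 19 and carry the name ZNF followed by a number and at most 1 capital letter. This rule uses names and position only and gave 230 of the 20329 genes analysed. They carry 229 distinct symbols, because ZNF8 has 2 entries. By the GENCODE 29 annotation 219 are protein-coding and 10 are pseudogenes, and 1 entry had no match there. A mean of at least 1 FPKM (fragments per kilobase of transcript, scaled to the mapped fragments of a library) over the libraries was met by 180 of the 230, and these 180 entered the comparisons, while 50 did not. The filter averages over every library, so a low gene could pass through 1 high library.

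Gene levels were measured by sequencing of polyadenylated RNA in 2 derivatives of MDA-MB-231, a human triple-negative breast cancer cell line. BM1 is a bone-metastatic derivative and LM2 a lung-metastatic one. In each line the control culture stably carried a lentiviral non-specific shRNA and the knockdown culture an shRNA against hnRNPM, an RNA-binding protein that takes part in splicing. Each of the 4 conditions had 1 library, so every value below is that of 1 culture. HNRNPM itself was at 171 FPKM in the BM1 control and 28.4 in the BM1 knockdown, and at 132 and 20.3 in the corresponding LM2 libraries, lower in the knockdown in both lines.

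The libraries held an inferred 22825000 (BM1 knockdown) to 41480000 fragments (LM2 control), and their FPKM sums were 434567 to 455114. Genes of the mitochondrial genome took 8.80% to 9.31% of the sum in the controls and 11.8% to 12.8% in the knockdowns. Of the markers of the line, KRT8, KRT18, VIM and CD44 lay at 129 FPKM or more in every library, EPCAM lay at 3.0 to 4.59 FPKM and ERBB2 at 13.5 to 21.9. LUM, a fibroblast gene, was at 0.021 and 0.024 FPKM in the BM1 and LM2 controls and at 0.465 and 1.61 in the knockdowns, and the melanocyte gene PMEL was at 3.57 to 9.07. The part of these differences in the results below was not tested. In RNA from a whole culture, fewer cells of a type and less RNA per cell cannot be told apart.

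Genes of this kind encode C2H2 zinc finger proteins, in which each finger is a short fold held by a zinc ion and rows of fingers read out DNA. Most of those on chromosome 19 carry a KRAB domain, which recruits the corepressor TRIM28 and, through it, histone methyltransferases and heterochromatin proteins. The genes arose by repeated tandem duplication and stand in large clusters, and many bind and silence transposable elements.

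The repeated architecture is visible in the coding sequence of ZNF91, a KRAB gene of the cluster near the centromere known for silencing SVA retrotransposons. The stretch below is shown because it holds 2 complete finger units in a row, coding bases 865 to 1046 of the longest open reading frame of ZNF91 in the GENCODE 29 transcripts. Capitals mark the 14 bases that encode most of the linker between neighbouring fingers.
ZNF91: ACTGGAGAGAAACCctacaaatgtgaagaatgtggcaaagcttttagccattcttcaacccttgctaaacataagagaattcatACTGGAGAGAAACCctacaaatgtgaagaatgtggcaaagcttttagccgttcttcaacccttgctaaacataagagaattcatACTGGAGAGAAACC
The same 14 bases occurred 15 times in the coding region of ZNF91. They were found in 130 of the 219 protein-coding members (59.4%), in 63 of 231 coding ZNF-named genes of other chromosomes (27.3%), and in 15 of 13033 transcripts of other genes (0.115%), on the coding strand in each case. The choice of these 14 bases favoured the members in this comparison. It took the stretch of that length present in the coding regions of the largest number of members. Neighbouring copies in the members lay 84 bases apart, the length of 1 finger with its linker, in 194 of 406 cases (47.8%). Such repeats make fragments hard to assign, and 8 members matched another member at 95% identity or more over at least 500 bases: ZNF799 with ZNF443, ZNF468 with ZNF320, ZNF587 with ZNF417 and ZNF324 with ZNF446. How the authors assigned fragments that fit several genes is not stated in the labels or notes, so the values of these 8 are uncertain.

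By simple sequence patterns in the longest open reading frame, 184 of the 219 coding members (84.0%) had a KRAB box, against 43.3% of 231 coding ZNF-named genes of other chromosomes. The members held a median of 12 fingers, up to 31 in ZNF91, and the ZNF-named genes elsewhere a median of 9. The median GC content of member transcripts was 42.4%, against 48.4% over all genes with a value.

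The zinc finger genes were expressed at low levels in every library. Over all 230, the median FPKM was 1.39 for BM1 control, 1.89 for BM1 knockdown, 2.09 for LM2 control and 2.37 for LM2 knockdown cells, so the BM1 control was the lowest of the 4. The median of all 20329 genes was 3.36, 3.64, 3.69 and 3.41 FPKM in the same order. At least 1 FPKM was reached in some library by 202 members and in every library by 135. The summed level of the members was 551, 746, 702 and 788 FPKM, which is 0.121%, 0.171%, 0.162% and 0.181% of each library's total. At the members' median transcript length of 3.644 kb, 1 FPKM corresponds to an inferred 83 to 151 fragments, which puts counting error alone at 8.13% to 11.0%. Counting error does not cover the difference between cultures.

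**Figure D1:**
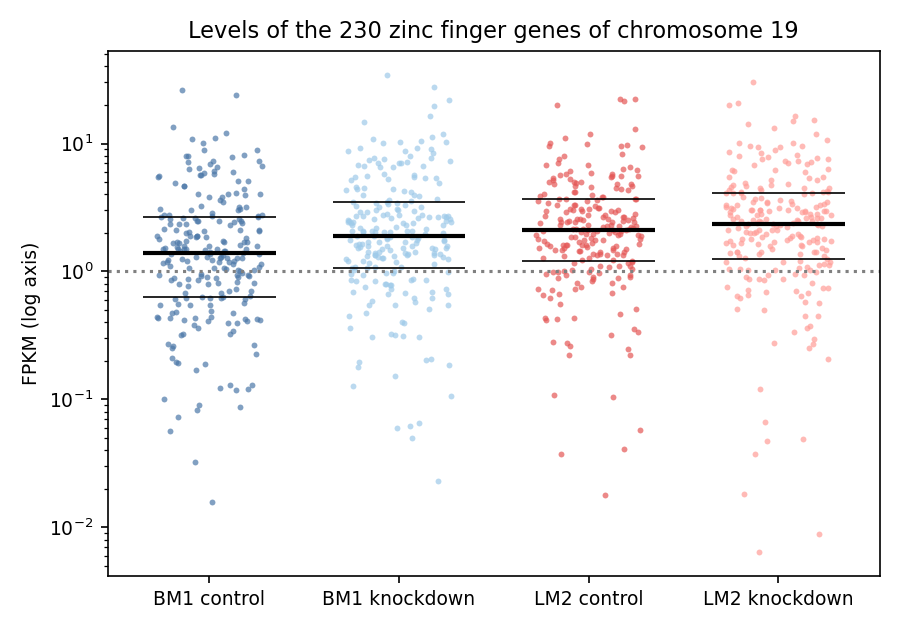
FPKM on a log axis for each of the 230 zinc finger genes of chromosome 19 in the 4 libraries. Each point is 1 gene, the thick line is the median and thin lines are the quartiles. The median runs from 1.39 FPKM in the BM1 control to 2.37 in the LM2 knockdown, and the dotted line marks 1 FPKM.

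The 5 members with the highest mean stood apart from this low level. ZNF146, a protein made almost wholly of fingers and without a KRAB box, had 12.2 FPKM in control and 34.6 in knockdown cells of BM1, against 22.1 and 30.2 in those of LM2. Both knockdown libraries were above both controls, and the average change was 0.93 ± 0.30 (SE, log2 scale) with an adjusted p of 0.107 by limma, which missed the threshold of 0.05. ZNF787 lay at 24.1, 22.0, 22.4 and 20.1 FPKM in the same order of libraries. ZNF428, which had 1 finger by the pattern used, was at 26.3, 19.8, 20.0 and 15.2 FPKM, lower in the knockdown in each line by a similar amount, with an average change of -0.39 (adjusted p = 0.373). ZNF274, known for marking the 3' ends of zinc finger genes with repressive chromatin, was at 13.4 and 14.7 FPKM in BM1, compared with 21.5 and 20.7 in LM2. Neither knockdown value of ZNF274 was far from its control. ZNF544 was at 8.92, 11.8, 13.0 and 14.1 FPKM.

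Depletion of hnRNPM was followed by a higher level of ZNF548, ZNF114, ZNF587B and ZNF358 in both lines. Changes are differences in log2(FPKM + 1), knockdown minus control, a scale that understates the change of low genes. The average over both lines was tested by limma with terms for line and treatment, adjusted by the Benjamini-Hochberg method over all 13928 genes that passed the filter. By this test 4 of the 180 members (2.22%) were called higher and 0 lower, against 5.47% of all genes tested, 2.71% higher and 2.76% lower, so the called share of the members was below the background. With a pseudocount of 0.1 in place of 1, limma called 1 member (0.556%) and 0.194% of all genes. At an unadjusted p under 0.05 there were 22 higher and 2 lower (13.3% of the members, against 24.9% of all genes). The spread behind these tests starts from how far the 2 lines differ in their change, with 1 residual degree of freedom per gene. From there limma draws the spread of each gene towards a value shared by all genes. The SE of ZNF548, at 0.25, rests largely on that shared value, because its changes in BM1 and LM2 were close, at 2.64 and 2.72. With any 1 of the 4 libraries left out, the fit can hold treatment as its only term, and limma then called 0 members and 0% of all genes, with 3 to 16 members at an unadjusted p under 0.05.

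ZNF548, a KRAB gene with 11 fingers, was at 0.830 FPKM in the BM1 control and 10.4 in the BM1 knockdown, and at 1.63 and 16.3 FPKM in the LM2 control and knockdown. Both knockdown libraries lay far above both controls, by 12.5-fold in BM1 and 9.99-fold in LM2. The average change was 2.68 ± 0.25 (SE, log2 scale) with an adjusted p of 0.003, and over 4 other ways of scaling or correcting the values the adjusted p ran from 0.004 to 0.060. ZNF548 overlaps AC003002.4 on the same strand, at 0.048 FPKM in control and 0.546 in knockdown BM1 cells, and 0.182 and 0.807 in LM2. Fragments of the 2 genes could be split between them.

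ZNF587B, a KRAB gene with 15 fingers in the same cluster at the end of the long arm, was at 2.72 FPKM in the BM1 control and 8.76 in the BM1 knockdown, and at 5.77 and 15.01 in LM2. Both knockdown values were above both controls. The average change was 1.32 ± 0.25 (SE) with an adjusted p of 0.025, ranging from 0.027 to 0.089 over the same alternatives. On the same strand it overlaps ZNF586, at 2.63 and 3.39 FPKM in BM1 and 3.31 and 4.15 in LM2 (adjusted p = 0.552), and CTD-2583A14.10, at 0.643 to 1.78 FPKM.

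The promoters of ZNF548 and ZNF587B are shown because both genes were called higher and both stand in the same cluster. The windows run from 250 bases before to 50 bases after the start site, from RefSeq on GRCh38.p14, at chr19:57389604-57389903 and chr19:57830049-57830348, both on the plus strand. Capitals mark CGGAAG or its reverse complement CTTCCG, a core that ETS family transcription factors are known to recognise.
ZNF548: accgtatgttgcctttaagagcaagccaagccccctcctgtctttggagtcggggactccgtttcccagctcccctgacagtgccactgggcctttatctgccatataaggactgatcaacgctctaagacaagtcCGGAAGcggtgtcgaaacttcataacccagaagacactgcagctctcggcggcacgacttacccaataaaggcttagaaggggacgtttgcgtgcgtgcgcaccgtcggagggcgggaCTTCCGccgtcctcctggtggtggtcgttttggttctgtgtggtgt
ZNF587B: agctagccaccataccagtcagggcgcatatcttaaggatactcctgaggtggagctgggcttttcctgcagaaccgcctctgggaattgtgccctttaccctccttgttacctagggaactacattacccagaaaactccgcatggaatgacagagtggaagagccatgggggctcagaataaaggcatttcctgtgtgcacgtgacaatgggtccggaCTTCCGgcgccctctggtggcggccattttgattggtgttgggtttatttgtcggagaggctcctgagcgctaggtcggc
The core occurred 2 times in the ZNF548 window and 1 time in that of ZNF587B. It was found on either strand in at least 1 window of 122 of the 194 member symbols with a RefSeq promoter (62.9%). The share was 22.6% of all 27326 symbols in the RefSeq promoter set, which is not limited to the 20329 genes analysed here. The core was not counted separately in ZNF-named genes of other chromosomes. It was present 1 time for ZNF486 and was not in the windows of ZNF358 and ZNF699, the other called members with a promoter in the table.

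ZNF114, a KRAB gene with 3 fingers that stands alone between clusters, was at 6.29 FPKM in the BM1 control and 27.5 in the BM1 knockdown, and at 1.80 and 7.95 in LM2. It was 4.37-fold and 4.42-fold higher in the knockdown, although the LM2 knockdown was only a little above the BM1 control. The average change was 1.82 ± 0.26 (SE) with an adjusted p of 0.011, ranging from 0.012 to 0.069 over the alternatives. ZNF114 spans 48675575 to 48790865 and overlaps CARD8 on the opposite strand, at 6.56 and 8.24 FPKM in BM1 and 7.56 and 6.87 in LM2, and 3 genes on its own strand, none of which was called (C19orf68, CARD8-AS1 and CTC-453G23.8). A further opposite-strand gene, CTC-241F20.4, was below the filter, at 0.647 FPKM in control and 2.22 in knockdown BM1 cells, and 0.030 and 0.484 in LM2.

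ZNF358, which had 9 fingers and no KRAB box by the pattern, was at 5.67 FPKM in the BM1 control and 16.4 in the BM1 knockdown, and at 2.96 and 7.71 in LM2. Within each line the knockdown was above the control, by 2.90-fold and 2.61-fold. The average change was 1.26 ± 0.25 (SE) with an adjusted p of 0.030, ranging from 0.031 to 0.092 over the alternatives. Its transcript is rich in GC, at 69.1%. It overlaps CTD-2207O23.11 on the opposite strand, which had an average change of -0.56, and CTD-2207O23.12 on the same strand, at 0.941 and 1.15 FPKM in the control and knockdown of BM1 and 0.702 and 0.761 in those of LM2.

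**Figure D2:**
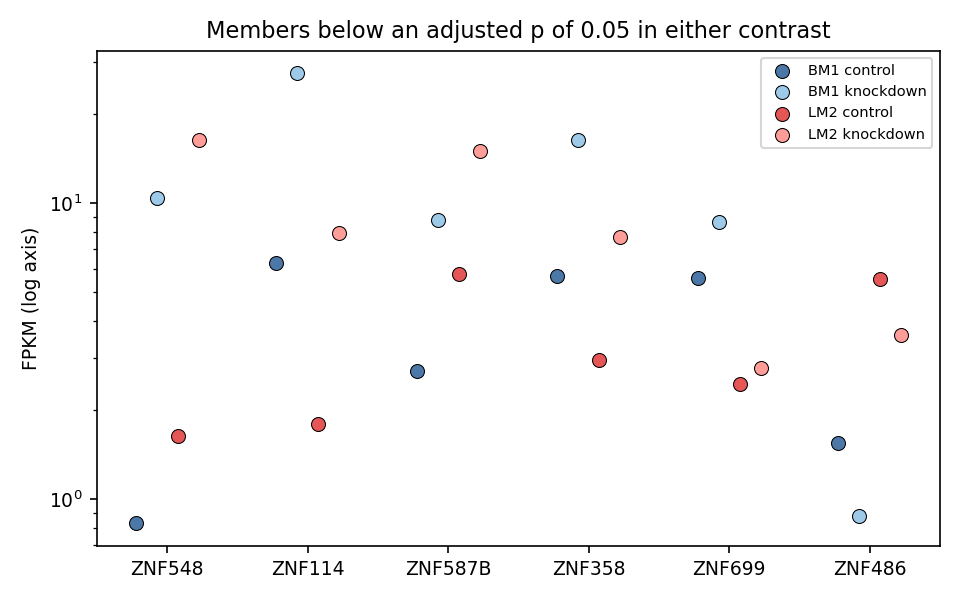
FPKM on a log axis of the 6 members below an adjusted p of 0.05 in either limma contrast, with 1 point for each library. ZNF548, ZNF114, ZNF587B and ZNF358 lie higher in the knockdown of each line, ZNF486 lies higher in both LM2 libraries and ZNF699 lower.

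Every called member overlapped another gene in the table. Of the 180 members tested, 98 overlapped another gene and 82 did not. Among those 82 limma called 0 for the knockdown and 0 between the lines, against 5.47% and 4.35% of all genes. At an unadjusted p under 0.05 there were 9 and 16 of the 82, against 24.9% and 22.4% of all genes. The part of overlap in the calls was not tested. The libraries were stranded, per the labels, but no label or note states whether strand was used when fragments were assigned, so fragments of overlapping genes on opposite strands may also be shared.

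The next largest average change was that of ZNF264, a KRAB gene, at 4.63 and 6.71 FPKM in the BM1 control and knockdown and at 1.83 and 8.96 in LM2. The change was mostly in LM2, where it was 4.88-fold, and the average of 1.13 ± 0.34 (SE) missed the threshold (adjusted p = 0.089).

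No member was called lower, and the lowest adjusted p among members with a negative average change was 0.120. It belonged to ZNF792, a KRAB gene at 4.41 and 1.51 FPKM in BM1 and 3.90 and 2.49 in LM2, with both knockdowns below both controls and an average change of -0.80 ± 0.27 (SE). The pseudogene ZNF887P had 1.49 and 0.577 FPKM in BM1, 1.75 and 0.867 in LM2, an average of -0.61 (adjusted p = 0.177). ZNF440, ZNF486 and ZNF784 had average changes of -0.48, -0.48 and -0.47, with adjusted p from 0.275 to 0.282.

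Within a line there was 1 library per arm, so differences within a line have no test, and those reaching 2-fold, that is 1 in log2 units, were counted. In BM1, 15 members were at least 2-fold higher in the knockdown and 1 lower (8.89% of 180, against 16.3% of all genes, 10.1% higher and 6.20% lower). In LM2, 7 were higher and 0 lower (3.89%, against 8.06%, 3.83% higher and 4.24% lower). The 4 members at least 2-fold higher in both lines were the 4 called ones. On this scale large changes were less common among the members than among all genes, but this depends on the pseudocount. With 0.1 in place of 1, which understates low genes less, 49 members (27.2%) were at least 2-fold apart in BM1 against 23.0% of all genes, and 14 (7.78%) in LM2 against 13.1%.

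Small differences leaned one way. In BM1 131 of 180 members were above 0 (72.8%, against 50.3% of all genes), with a median change of 0.32 against 0.005. In LM2 103 were above 0 (57.2%, against 46.5%), with a median of 0.07 against -0.04. Over all 230 members, including those under the filter, 167 were above 0 in BM1 and 127 in LM2. The change was positive in both lines for 84 of the 180 (46.7%, against 33.0% of all genes) and negative in both for 30 (16.7%, against 36.2%). The median of the averaged change was 0.18 against -0.01 over all genes.

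The remaining 66 members had opposite signs in the lines. The largest of these by the smaller of the 2 changes included ZNF566, at 1.26 and 3.30 FPKM in the BM1 control and knockdown and 4.80 and 3.33 in LM2. Its knockdown libraries were almost equal and its controls differed. ZNF780A (2.41 and 3.42 in BM1, 4.61 and 2.99 in LM2) and ZNF470 (0.772 and 1.70, 2.45 and 1.72) had the same pattern, lowest in the BM1 control and highest in the LM2 control. In the other direction, ZNF324 was at 2.66 and 1.25 FPKM in BM1 and 2.07 and 5.38 in LM2, but it shares 1420 identical bases with ZNF446, which it overlaps. ZNF333 was at 3.96 and 1.88 FPKM in BM1 and 1.73 and 2.43 in LM2, and ZNF580 at 7.29 and 5.30, and 6.74 and 11.8. On the same strand ZNF580 overlaps CCDC106, at 23.6 and 14.7 FPKM in BM1 and 11.7 and 13.3 in LM2. It also overlaps ZNF581, at 7.93 and 10.2 in BM1 and 11.9 and 9.39 in LM2. Fragments of these genes could be split between them. A test of the interaction is not possible with 1 library per condition.

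The 10 tested members chosen for well studied roles were not called in either contrast. By limma 0 were called for the knockdown, against 5.47% of all genes, and 0 between the lines, against 4.35%. At an unadjusted p under 0.05 there were 2 for the knockdown, against 24.9% of all genes, and 0 between the lines, against 22.4%. With shares of this size, 0 calls among 10 genes does not set them apart. ZNF91 was at 0.976 and 3.50 FPKM in the BM1 control and knockdown and at 1.69 and 2.84 in LM2. Both knockdowns were above both controls, with an average change of 0.85 ± 0.28 (SE) and an adjusted p of 0.108. ZNF93, which represses LINE-1 elements, was at 1.39 and 1.54 FPKM in BM1 and 2.73 and 1.89 in LM2. ZNF224, a KRAB repressor of the aldolase A gene, was at 1.47 and 2.65 FPKM in BM1 and 4.18 and 3.14 in LM2. ZNF331, an imprinted gene in some tissues, was at 1.70 and 3.93 FPKM in BM1 and 3.93 and 3.03 in LM2. ZNF224 and ZNF331 had opposite signs in the lines and were lowest in the BM1 control.

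ZNF304, a KRAB protein linked to silencing of tumour suppressor genes, was at 3.52 and 6.55 FPKM in BM1 and 4.64 and 7.001 in LM2, with both knockdowns above both controls and an adjusted p of 0.174. ZNF444, a SCAN domain protein, was at 10.1 and 6.66 FPKM in BM1 and 9.45 and 6.87 in LM2. Both knockdowns of ZNF444 were below both controls, with an average of -0.47 (adjusted p = 0.285). ZNF419 lay between 1.29 and 2.497 FPKM and ZNF431 between 0.678 and 1.62. ZNF154, a gene often methylated in tumours, was at most at 0.124 FPKM in any library and was not tested.

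Between the lines, ZNF486 was higher in LM2 and ZNF699 and ZNF114 were lower. The contrast is LM2 minus BM1 over both treatments, from the same limma fit, and it called 3 of 180 members (1.67%), 1 higher and 2 lower, against 4.35% of all genes, 2.31% higher and 2.04% lower. At an unadjusted p under 0.05 there were 24 higher and 7 lower (17.2%, against 22.4% of all genes). With any 1 library left out and line as the only term, limma called 0 members and 0.0431% to 0.201% of all genes, with 1 to 20 members at an unadjusted p under 0.05.

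ZNF486, a KRAB gene of the 19.8 to 22.0 Mb cluster, was at 1.55 FPKM in the BM1 control and 0.879 in the BM1 knockdown, and at 5.53 and 3.58 in LM2. Both LM2 libraries were above both BM1 libraries, and the average difference was 1.32 ± 0.25 (SE, log2 scale) with an adjusted p of 0.025, ranging from 0.026 to 0.072 over the alternatives. CTC-260E6.6 on the opposite strand was at 1.86 and 2.43 FPKM in BM1, against 4.56 and 3.76 in LM2, and was not called (adjusted p = 0.158). ZNF486 was the 1 member at least 2-fold higher in LM2 in both treatments. ZNF699, a KRAB gene with 14 fingers, was at 5.58 and 8.67 FPKM in BM1, compared with 2.45 and 2.77 in LM2. Both LM2 values were below both BM1 values, and the average difference was -1.15 ± 0.26 (SE) with an adjusted p of 0.047, ranging from 0.051 to 0.105. CTC-325H20.4, which overlaps ZNF699 on the opposite strand, was at 4.39 and 5.70 FPKM in BM1 and 1.52 and 1.95 in LM2, and it was also called lower (adjusted p = 0.043).

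ZNF114 was lower in LM2 in both treatments, at 0.286 and 0.289 times the BM1 level in controls and knockdowns, with an average difference of -1.53 ± 0.26 (SE) and an adjusted p of 0.015, ranging from 0.016 to 0.057. It was the 1 member called in both contrasts. Among members that were not called, ZNF234, ZNF383, ZNF542P and ZNF772 had the largest differences towards LM2, with averages of 1.01, 0.96, 0.95 and 0.92 and adjusted p from 0.073 to 0.095. ZNF542P is a pseudogene whose opposite-strand partner AC006116.27 was called higher in LM2 (adjusted p = 0.014). ZNF358, ZNF653 and ZNF321P lay at -0.88, -0.77 and -0.65 (adjusted p = 0.091, 0.123 and 0.185).

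In the controls, 12 members were at least 2-fold higher in LM2 and 2 lower (7.78%, against 12.2% of all genes, 6.98% higher and 5.26% lower). In the knockdowns, 4 were higher and 3 lower (3.89%, against 9.04%, 4.41% higher and 4.63% lower). With a pseudocount of 0.1 the share of members was above that of all genes in the controls (25%, against 18.9%) and below it in the knockdowns (7.78%, against 14.5%). Differences above 0 were found for 140 of 180 members in the controls (77.8%, against 52.2%) and 113 in the knockdowns (62.8%, against 45.3%). The medians were 0.37 in the controls and 0.17 in the knockdowns, against 0.03 and -0.06 over all genes. LM2 was higher in both treatments for 99 members (55.0%, against 32.0%) and lower in both for 26 (14.4%, against 34.5%).

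The BM1 control library is part of both the BM1 knockdown change and the difference between the controls. It held the lowest value of 114 of the 180 members (63.3%, against 31.0% of all genes). The BM1 knockdown held the lowest value for 31 members (17.2%, against 23.0%), the LM2 control for 21 (11.7%, against 19.5%) and the LM2 knockdown for 14 (7.78%, against 26.5%). The comparisons without the BM1 control, the LM2 change and the difference between the knockdowns, gave the smaller medians of 0.07 and 0.17.

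The ZNF-named genes of other chromosomes stood between the members and all genes in BM1. Of these 237 genes 200 were tested, and their median change was 0.19 in BM1 and -0.08 in LM2, with median differences between the lines of 0.27 in the controls and 0.006 in the knockdowns. The 84 tested ones with a KRAB box by the pattern had medians of 0.25, -0.06, 0.44 and 0.06 in the same order. Those of all 180 tested members were 0.32, 0.07, 0.37 and 0.17. For the 145 tested members with a KRAB box they were 0.33, 0.09, 0.41 and 0.19. The 112 tested ZNF-named genes of other chromosomes without a KRAB box had 0.10, -0.08, 0.17 and -0.015. For the 29 tested coding members without it they were 0.04, -0.10, 0.04 and -0.02. The BM1 control held the lowest value for 56.0% of the 84 and 42.0% of the 112. Among members these shares were 68.3% of the 145 with a KRAB box, 44.8% of the 29 without it, and 63.3% of all 180. The 806 tested genes of chromosome 19 that are neither members nor other zinc finger genes by name lay on the other side of 0, at -0.18, -0.08, -0.19 and -0.06. A further 16 zinc finger genes of chromosome 19 bear other names, such as ZFP, ZSCAN and antisense names, and 12 of them were tested. Their medians were 0.05 in BM1 and -0.02 in LM2, and 0 were called by limma in either contrast.

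**Figure D3:**
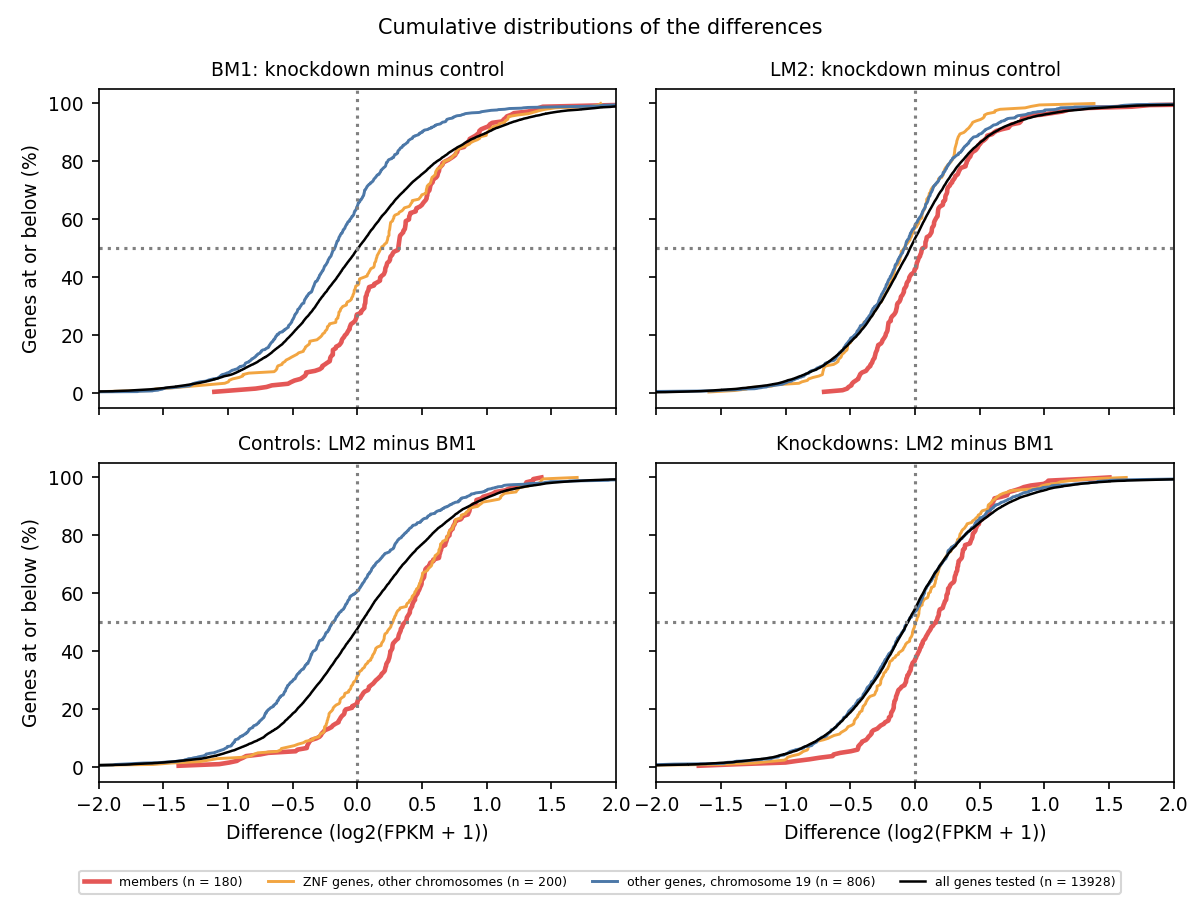
Cumulative share of genes, in percent, at or below each difference in log2(FPKM + 1), in 4 panels for the 2 knockdown changes and the 2 differences between lines, drawn for differences of at most 2 in either direction. The members (thick line, 180 genes) cross the middle at 0.32 for BM1 and 0.37 for the controls, to the right of all genes, while the other genes of chromosome 19 lie to the left of them.

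Transcripts poor in GC were higher in the BM1 knockdown across the whole table. Over 13723 genes the Pearson r of transcript GC content with the BM1 change was -0.38, and over the 180 members it was -0.33. For the difference between controls these were -0.24 and -0.34. Genes within a library share its depth and preparation, so these values describe the libraries. Among genes of 30% to 40% GC the median BM1 change was 0.49 for 42 members and 0.68 for 1975 other genes. At 40% to 45% GC it was 0.37 for 77 members and 0.27 for 2874 other genes, at 45% to 50% it was 0.20 for 33 members and -0.07 for 2425, and at 50% to 80% it was -0.08 for 28 members and -0.24 for 6255. The members were thus below other genes in the lowest class and above them in the others.

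With the trend on GC content and transcript length removed from every gene, the members' median was 0.06 in BM1 and 0.06 in LM2, against 0.01 and -0.004 over all genes. Of 180 members 97 were above 0 in BM1 (53.9%) and 102 in LM2 (56.7%). The median difference between lines fell from 0.37 to 0.16 in the controls and rose from 0.17 to 0.24 in the knockdowns. Over all genes these medians were 0.02 and -0.01 after the correction. The difference was above 0 for 120 of 180 members in the controls (66.7%) and 124 in the knockdowns (68.9%). The average change over both lines went from 0.18 to 0.04 and the average difference between lines from 0.26 to 0.23. The correction also takes away any change that truly goes with GC content.

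**Figure D4:**
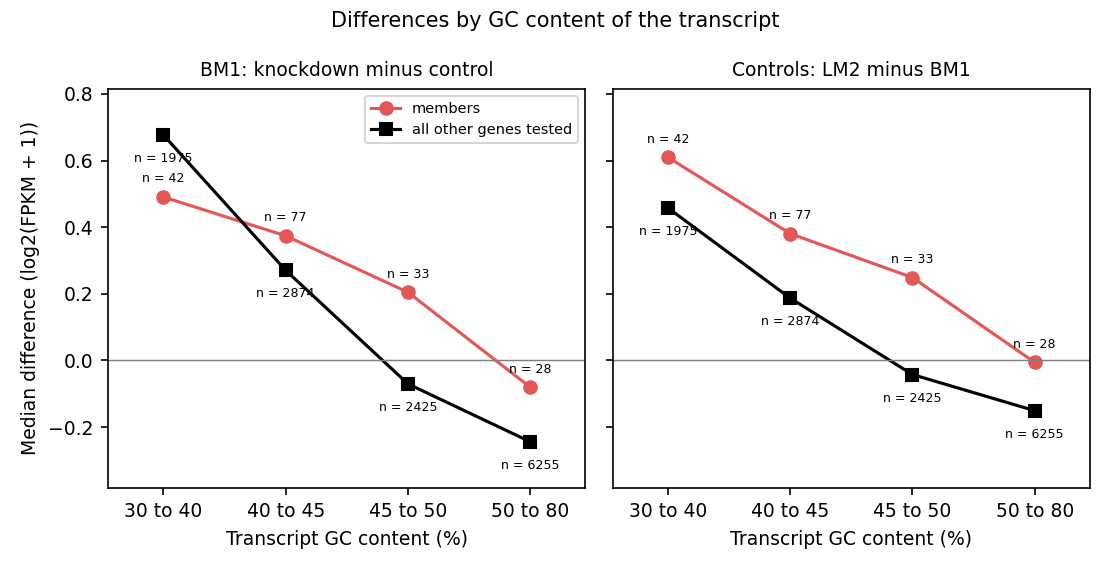
Median difference in log2(FPKM + 1) by transcript GC content in percent, for the members (circles) and all other genes tested (squares), in the BM1 knockdown and between controls, with the number of genes at each point. Both sets fall with GC content, and the members go from 0.49 to -0.08 in BM1.

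Members with and without a KRAB box differed in level, GC content and change. The 145 tested members with the KRAB pattern had a median of 2.43 FPKM, a GC content of 42.4%, and median changes of 0.33 in BM1 and 0.09 in LM2. The 29 tested coding members without it had a median of 6.54 FPKM, a GC content of 60.9%, and medians of 0.04 and -0.10. GC content and the KRAB box go together here, and their parts were not tested. The number of fingers had an r of 0.12 with the BM1 change and 0.05 with the LM2 change over 174 members, which is close to none, and of -0.27 with the mean FPKM.

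Along the chromosome, 217 of the 230 members stood in 9 clusters of at least 5 members, where a cluster is a run of members whose neighbouring starts lie less than 1 Mb apart. Positions are those of the deposited table, and the build is GRCh37 per the submitters' processing notes. The median BM1 change was above 0 in all 9 clusters, and in 5 of 9 with the trend on GC content and length removed. It ran from 0.02 at 35.2 to 35.5 Mb (4 members tested) to 0.72 at 36.7 to 38.3 Mb (17 tested) without that correction. In LM2 the cluster medians ran from -0.27 to 0.19 and 7 of 9 were above 0.

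The cluster at 36.7 to 38.3 Mb had 16 of 17 members above 0 in BM1 and 12 of 17 in LM2. It holds ZNF146, ZNF566 and ZNF383. The pair of clusters nearest the centromere, rich in primate-specific KRAB genes, had median BM1 changes of 0.50 at 19.8 to 22.0 Mb (12 of 17 above 0) and 0.64 at 23.4 to 24.3 Mb (4 of 4). Their median GC contents, 37.6% and 36.7%, were the lowest of the 9. The 2 largest clusters, of 41 members at 52.1 to 54.1 Mb and 57 members at 56.0 to 59.0 Mb, had medians of 0.41 and 0.24 in BM1 and of 0.05 and 0.08 in LM2. With the trend on GC content and length removed, the BM1 medians were 0.20 at 36.7 to 38.3 Mb, 0.03 and 0.13 in the 2 largest, 0.07 at 7.1 to 9.9 Mb and 0.10 at 44.0 to 45.6 Mb. They were below 0 in the other 4, at -0.27 at 19.8 to 22.0 Mb, -0.01 at 23.4 to 24.3 Mb, -0.10 at 11.6 to 12.8 Mb and -0.27 at 35.2 to 35.5 Mb.

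**Figure D5:**
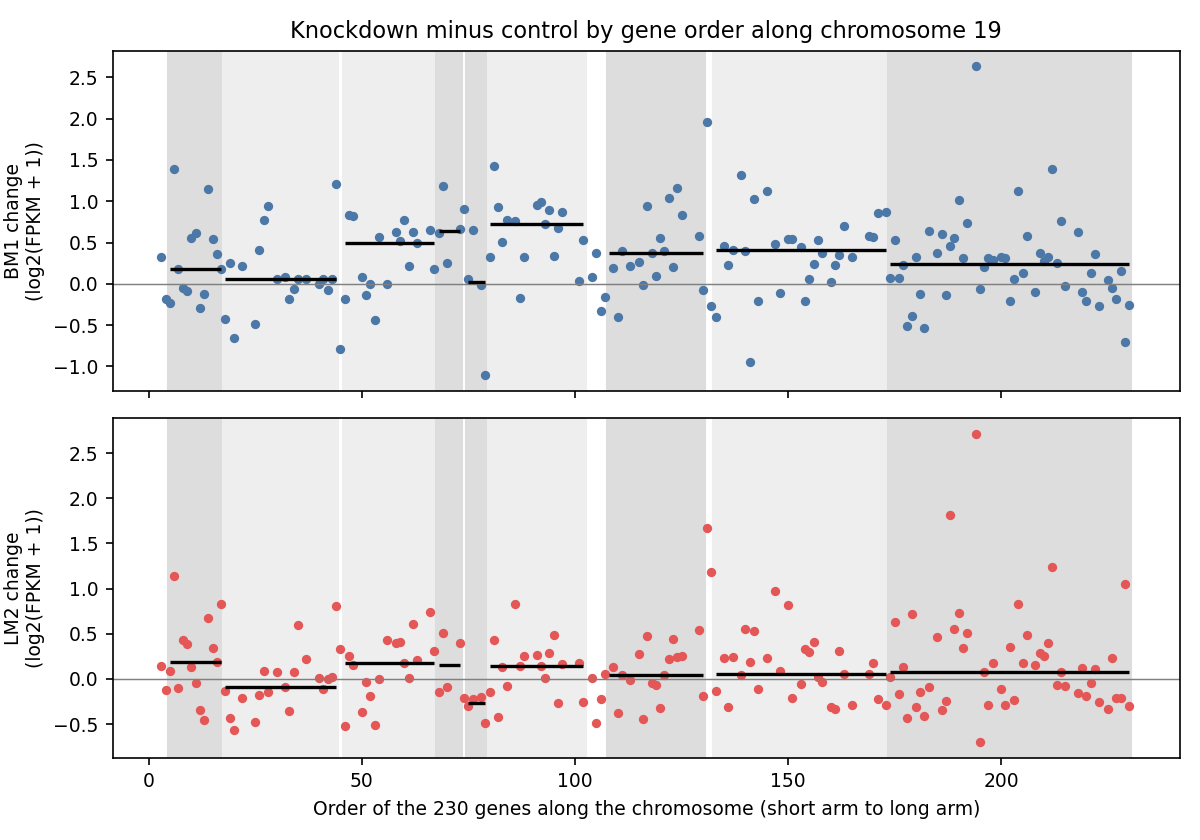
Knockdown minus control in log2(FPKM + 1) for each tested member, by its order along the chromosome among the 230, in BM1 (upper panel) and LM2 (lower panel). Shaded bands are the 9 clusters and black lines their medians, which are above 0 in all 9 in BM1 (5 of 9 with the trend on GC content and length removed) and in 7 in LM2.

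The difference between the lines varied by cluster. At 19.8 to 22.0 Mb LM2 was higher for 17 of 17 members in the controls and 16 of 17 in the knockdowns, with medians of 0.63 and 0.43. After the correction for GC content and length these were 12 and 16 of 17. The 5 other genes tested in this span had uncorrected medians of 0.85 in the controls and -0.24 in the knockdowns. At 56.0 to 59.0 Mb LM2 was higher for 42 and 41 of 50 members, with medians of 0.42 and 0.31, and 28 other genes in the same span had an average difference with a median of 0.27. At 7.1 to 9.9 Mb, which holds ZNF358 and ZNF699, the members' medians were -0.26 and -0.32, and those of 35 other genes in the span were -0.37 and -0.35. In these last 2 spans the other genes differed in the same direction as the members.

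Direct neighbours within a cluster were alike in the difference between lines, with an r of 0.34 over 164 pairs. For the average knockdown change the r was 0.04. This contrast did not extend to members 2 apart, with an r of 0.19 and 0.16 over 152 pairs. At 5 apart the values were 0.15 and 0.09. Pairs were pooled over clusters whose medians differ, and likeness inside single clusters was not tested. The called ZNF548 and ZNF587B belong to the same cluster, in which no other member was called for the knockdown, and ZNF114 has no member within 1 Mb. Neighbours also shared GC content, with an r of 0.67.

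The 50 members under the filter were low throughout, and the highest single value among them was 2.31 FPKM. This was ZNF136, a KRAB gene, in the BM1 knockdown, against 0.267 in the BM1 control and 0.356 and 0.575 in LM2. ZNF575 was at 1.70 FPKM in the BM1 control and 0.197 in the BM1 knockdown, and at 0.905 and 0.298 in LM2. ZNF404 was at 0.101 and 1.57 FPKM in BM1 and 0.248 and 1.03 in LM2, higher in both knockdowns. None of these 3 was tested.

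The corepressor genes through which KRAB proteins act did not pass the test under knockdown. Of 30 listed symbols 29 were in the table and all 29 were tested. For the knockdown limma called 0 of them, against 5.47% of all genes, and 6 were at an unadjusted p under 0.05, against 24.9%. There were 7 above 0 and 13 below 0 in both lines (33.0% and 36.2% of all genes). Their median changes were -0.13 in BM1 and -0.07 in LM2. TRIM28, the corepressor that KRAB domains bind, was at 220 and 196 FPKM in the BM1 control and knockdown and at 236 and 223 in LM2 (adjusted p = 0.798). SETDB1, the methyltransferase that TRIM28 recruits, was at 7.63 and 9.20 FPKM in BM1 and 12.004 and 11.7 in LM2 (adjusted p = 0.835). The lowest adjusted p for the knockdown, picked out after the values were seen, belonged to EHMT2, a histone H3 methyltransferase, with 38.1 and 17.6 FPKM in BM1, 21.6 and 11.1 in LM2 (average change -0.99, adjusted p = 0.059). SMARCAD1, a chromatin remodeller that binds TRIM28, had 4.14 and 13.1 FPKM in BM1, 9.80 and 16.1 in LM2 (1.06, adjusted p = 0.066). Both knockdowns were below both controls for EHMT2 and above them for SMARCAD1. Between the lines 2 were called, against 4.35% of all genes, both higher in LM2. CBX5, a heterochromatin protein that binds methylated histone H3, was at 10.54 and 10.1 FPKM in BM1 and 28.4 and 38.7 in LM2 (adjusted p = 0.014), and the histone methyltransferase SUV39H1 was at 5.35 and 3.63 in BM1 and 17.9 and 14.8 in LM2 (adjusted p = 0.010).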

How the data were processed

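Values are FPKM as deposited in 1 table for 4 libraries. The authors used STAR 2.5.3a, Cuffdiff 2.2.1 and GRCh37, per the submitters' processing notes, and those notes give no role or order. Rows with a repeated gene ID (40 of 20369) were left out. The 13928 genes whose mean reached 1 FPKM were analysed as log2(FPKM + 1) in Python 3.11.15 with pandas 2.3.3, and in R 4.3.3 with limma 3.58.1. The limma fit had terms for line and treatment and two-sided p-values, adjusted by the Benjamini-Hochberg method over all these genes with a threshold of 0.05. It was tested on simulated data. The line pairs control and knockdown, because both libraries come from the same line. With 1 library per condition, p-values measure only the spread between these libraries, drawn for each gene towards a value shared by all genes.

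Depth was inferred from the low values, whose product with transcript length fell near whole multiples of 1 step for 35.9% to 44.0% of values, so no count test was run. GENCODE 29 (GRCh38) was matched by gene ID for type, length, GC content and coding sequence (229 of 230 members), and RefSeq promoters by symbol (195 of 230 entries). No coordinates were converted. Clusters were runs of members with neighbouring starts less than 1 Mb apart. The trend on GC content and length was removed by loess with a span of 0.5. It was fitted for each library to the deviation from the gene's mean over the libraries.

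Members, lists and rules were chosen with earlier results of these data known. Named members were the called ones, the 5 highest, the 5 largest in each direction in each contrast with the same sign in both lines or treatments, the 3 largest with opposite signs each way, 3 below the filter, and 12 fixed symbols with known roles, of which ZNF382 was not analysed here. Alternatives were other pseudocounts, filters, scalings and thresholds, leaving out each library, no term for the paired factor, leaving out overlapping members, other cluster distances and, chosen after seeing the data, the correction of single genes and clusters for GC content and length.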

Additional observations from a re-analysis of the deposited data

Results flagged for a closer look

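Of the members chosen by the rule for named genes, 13 had knockdown changes of opposite sign in the 2 lines, and in each case the difference was not tested, because there is 1 library per line and treatment. The values here are the LM2 change minus the BM1 change on the log2(FPKM + 1) scale. The change was higher in LM2 for ZNF324 at 1.76, ZNF580 at 1.12 and ZNF333 at 1.12. It was lower in LM2 for ZNF566 at -1.35, ZNF331 at -1.16, ZNF470 at -0.95, ZNF224 at -0.88, ZNF780A at -0.86, ZNF542P at -0.72, ZNF772 at -0.61, ZNF93 at -0.45, ZNF321P at -0.34 and ZNF274 at -0.18. ZNF324 overlaps ZNF446 and shares a long identical stretch with it, and ZNF580 overlaps CCDC106 and ZNF581 on the same strand. ZNF566, ZNF470, ZNF224, ZNF780A, ZNF542P, ZNF772, ZNF93 and ZNF274 were lowest in the BM1 control and highest in the LM2 control. Each of these comparisons rests on all 4 libraries.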

How the results depend on the processing

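The medians of the members kept their direction under the alternatives run, at 0.04 to 0.26 for the average knockdown change and 0.21 to 0.39 for the average difference between lines. The counts of calls did not keep their size, and neither did those over all genes. For the knockdown, limma called 1 member with a pseudocount of 0.1 (0.556%, against 0.194% of all genes), 0 with no filter (0%), 0 with quantile normalization (0%), 2 with the GC and length trend removed (1.11%, against 0.758%), 0 among members without an overlap, and 9 at an adjusted p below 0.1 (5.0%, against 11.7%). For the lines the counts were 0, 0, 0, 1, 0 and 8 under the same settings, against 1.55%, 0%, 0.747%, 2.0%, 4.35% and 9.65% of all genes. Beside the members without an overlap, the 4.35%, and 5.47% for the knockdown, are shares of all genes tested, with or without an overlap. Without the replicate block, that is without the term for the paired factor, limma called 0 and 0 (13 and 10 at an unadjusted p under 0.05), against 0% and 0.0790% of all genes. With each library left out in turn, also without that term, the counts were 0 to 0 for both contrasts.

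Members at least 2-fold apart numbered 49 (BM1 change), 14 (LM2 change), 45 (controls) and 14 (knockdowns) with a pseudocount of 0.1, against 23.0%, 13.1%, 18.9% and 14.5% of all genes. These are 27.2%, 7.78%, 25% and 7.78% of the members. At a 1.5-fold rule they numbered 53, 21, 62 and 27 (29.4%, 11.7%, 34.4% and 15%), against 37.8%, 24.5%, 34.0% and 27.7%. With a pseudocount of 0.5 they were 28 for the BM1 change (15.6%, against 19.4%), 28 for the controls (15.6%, against 15.4%) and 12 for the knockdowns (6.67%, against 11.6%). With a mean of at least 3 FPKM, which left 68 members, they were 10, 5 and 4 for these comparisons. These are 14.7%, 7.35% and 5.88%, against 17.1%, 12.5% and 8.91% of all genes at this filter. Among the 82 members without an overlap the 4 counts were 6, 1, 5 and 0 (7.32%, 1.22%, 6.10% and 0%). The shares of all genes, with or without an overlap, were 16.3%, 8.06%, 12.2% and 9.04%. Fewer members entered under these 2 restrictions. The BM1 count was 7 with the GC and length trend removed (3.89%, against 11.0%). For the other settings the cause of the shifts was not tested. Joining starts less than 2 Mb apart gave 5 clusters. With the GC and length trend removed the sign turned for ZNF431 (average change -0.40), ZNF224 (-0.16) and ZNF780A (BM1 change -0.35), and with quantile normalization for ZNF274 (-0.012). Depth limits the lowest members, at 83 to 151 inferred fragments per FPKM.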
